A study of Oryza sativa with 36 samples.

Results

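Roots of the rice line PL177 were compared between salt plus abscisic acid (salt+ABA) and the control, on 6 of the 36 arrays of the series, chosen as the 3 salt+ABA and the 3 control arrays whose labels name PL177 and the root. PL177 is a salt-tolerant F6 pyramiding line, one inbred line bred by crossing introgression lines in the background of the rice variety IR64, which is moderately sensitive to salt. Seedlings of both lines shared boxes. Both groups were seedlings at the 3-leaf stage in Yoshida nutrient solution. The salt+ABA seedlings received 140 mM NaCl, reached in steps, together with 10 µM ABA and were labelled as treated for 4 days, and the control seedlings received neither; the labels give no time for the control. The remaining arrays used here are PL177 roots under salt alone, IR64 roots and PL177 shoots (labelled leaf), with 3 arrays in each group, and the study's question was how salt and added ABA change expression in lines that differ in tolerance. Each array measured 57258 probe sets of an Affymetrix rice array as a fluorescence intensity, all of which were tested.

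ABA is the hormone through which plants signal water deficit. When it binds its receptors, type 2C protein phosphatases (PP2C) release SnRK2 kinases, which activate bZIP transcription factors and, through them, genes for late embryogenesis abundant (LEA) proteins and dehydrins that protect cell structures during drying. Rice roots also make diterpenoid phytoalexins, the momilactones and phytocassanes, which are antimicrobial compounds whose biosynthetic genes lie side by side in clusters in the genome.

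The arrays of a group were closely alike. Pearson correlations of log2 intensities across probe sets lay between 0.997 and 0.998 among the salt+ABA arrays and between 0.990 and 0.993 among the control arrays. The ratio of GAPDH signal at the 3′ end to that at the 5′ end, a measure of RNA integrity, was 3.67 to 4.66 under salt+ABA and 3.84 to 5.91 in the control, so the groups overlapped. The root label was checked against marker genes on a scale shared with the shoots: 8 of 14 root markers, among them Lsi2 and CASP1 of the exodermis and endodermis, were higher in every PL177 root control array than in every shoot control array, and 16 of 18 leaf markers were higher in every shoot array. Of the other root markers, 5 overlapped between the organs, IRT1 and NAAT1 among them, and NIP2;2 was higher in shoots. RBCS1, among the 16 leaf markers higher in shoots, was dim in both organs, with means of 3.58 in root and 6.08 in shoot controls. The leaf markers GLO3 and GLO4 were higher in root controls, at 9.56 and 2.51 times their shoot level. Leaf genes nevertheless gave clear signal in the root arrays, as described below. These are bulk samples, in which fewer cells of a type and less RNA per cell cannot be told apart.

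A total of 1149 probe sets were differentially expressed (DEGs), defined as a change of more than 2-fold with an adjusted p below 0.05 in a limma fit of the 18 root arrays. Of these, 630 were up-regulated under salt+ABA, 1.1% of the probe sets tested, and 519 were down-regulated, 0.906%. The median log2 fold change was 1.41 among the up-regulated and -1.31 among the down-regulated probe sets. Counting 1 probe set per gene, 393 of 17905 annotated genes rose (2.19%) and 310 fell (1.73%), and 25.2% of these genes had 3 salt+ABA arrays that were all above the 3 control arrays, 21.4% all below. In the same fit, salt alone against the control gave 418 up- and 347 down-regulated probe sets (0.73% and 0.606%), or 516 and 280 when arrays were centred on their medians in place of quantile normalization, and salt+ABA against salt gave 187 and 600 (0.327% and 1.05%).

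**Figure D1:**
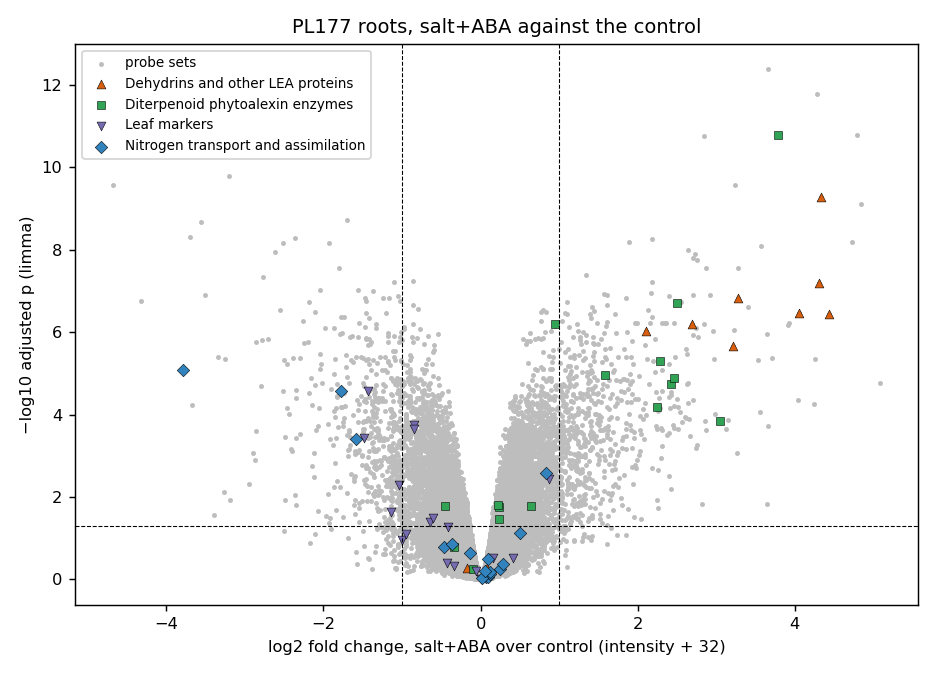
Each point is a probe set, with the log2 fold change of salt+ABA over the control in PL177 roots on the x axis and −log10 of the limma adjusted p on the y axis. Dashed lines mark the 2-fold and 0.05 thresholds. Of the coloured lists, 8 of 10 genes of the LEA list and 8 of 16 diterpenoid phytoalexin enzymes are right of the thresholds, and 4 of 18 leaf markers and 3 of 17 nitrogen genes are left of them.

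The features with the greatest changes of all had no gene name. Os10g0548100, annotated as a conserved hypothetical protein, had normalized intensities of 2181, 2048 and 1549 under salt+ABA against 28.2, 24.8 and 22.5 in the control, a log2 fold change of 5.08 ± 0.54 (adjusted p = 1.74e-05, limma). Os01g0642200, another conserved hypothetical protein, stood at 55.7, 53.8 and 53.4 against 2159, 2576 and 1838, a change of -4.67 ± 0.17 (adjusted p = 2.65e-10). Neither pair of groups overlapped. Both were chosen after their values were seen. Here and below, fold changes are on the log2(intensity + 32) scale, which understates the change of dim probe sets, and are given ± SE of the fit with 3 arrays per group.

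Gene lists differed widely in how many of their members passed the thresholds. Against 2.19% of all genes that rose, 80% of the 10 genes of the LEA list, 50% of the 16 diterpenoid phytoalexin enzymes and 50% of the 6 glutathione transferases rose. Against 1.73% that fell, 33.3% of the 6 WRKY factors, 22.2% of the 18 leaf markers, 17.6% of the 17 genes of nitrogen transport and assimilation and 17.1% of the 35 jasmonate genes fell.

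**Figure D2:**
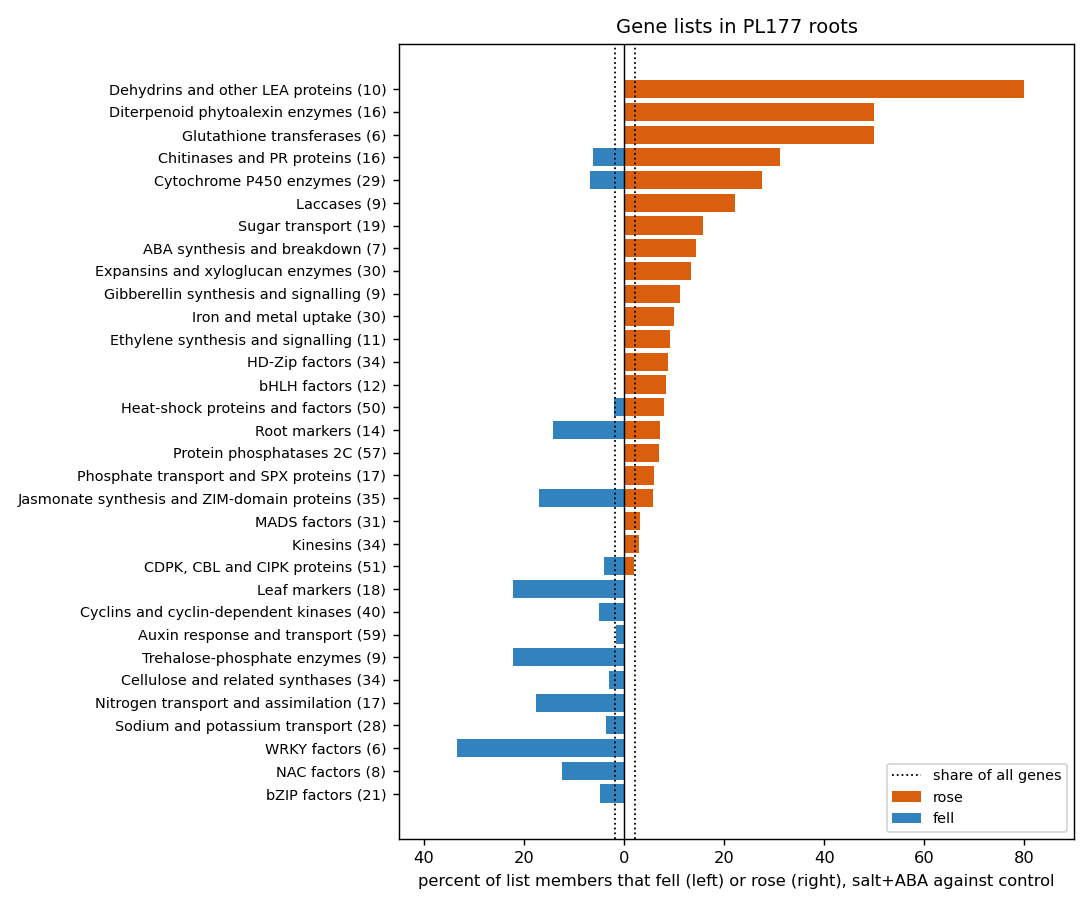
Bars show the percentage of each list's members (number of genes in parentheses) that rose (right) or fell (left) in PL177 roots under salt+ABA against the control. Lists of at least 6 genes with 1 or more calls are drawn. Dotted lines mark the shares over all genes, 2.19% and 1.73%, and the LEA list reaches 80% while several regulator lists stay near the dotted lines.

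The list of LEA proteins and dehydrins, which also holds the ABA-induced membrane protein PM19L1, had the greatest share of increases among the lists drawn above. Of 10 members, 8 rose and none fell, and the median log2 fold change was 3.24 against 0.02 over all genes. Without PM19L1, 7 of 9 rose and the median was 3.21. RAB16D, a dehydrin, had 1620, 2028 and 2784 under salt+ABA and 67.2, 64.3 and 66.7 in the control, a change of 4.44 ± 0.32 (adjusted p = 3.63e-07, limma). LEA19, a group 3 LEA protein, had 1834, 2072 and 1883 against 61.7, 65.8 and 69.6, a change of 4.33 ± 0.17 (adjusted p = 5.37e-10). In both, the salt+ABA arrays were far above the control arrays. PM19L1, an ABA-induced plasma membrane protein, went from 64.9, 32.1 and 45.4 to 1496, 1515 and 1541 (4.31 ± 0.26, adjusted p = 6.33e-08), with a dim second probe set at 0.24. RAB21 went from 30.3, 27.2 and 40.8 to 817, 979 and 1382 (4.05 ± 0.29, adjusted p = 3.36e-07), and its second probe set rose by 3.92. The smaller increases on the list were those of RAB16C (3.27), RAB16B (3.21), the LEA protein Os08g0327700 (2.69) and rab25, which went from 29.9, 37 and 30.1 to 216, 234 and 289 (adjusted p = 9.14e-07). Members of the RAB16 family are close paralogs, and probe sets may share signal among them. Dhn1 and EM did not pass, with 5649, 5577 and 4892 against 5702, 6759 and 5723 for Dhn1 and 50, 51.4 and 46.4 against 42.4, 42.4 and 48.9 for EM.

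Against salt alone 2 of the 10 genes of the LEA list rose under salt+ABA, beside 0.62% of all genes, and 7 of the 10 rose under salt alone against the control, beside 1.59% of all genes. The GAPDH ratio of salt array 3 was 14.3, above that of every other PL177 root array, and without it 7 of the 10 genes rose against salt. Without salt array 1 the count was 4, and without salt array 2 it was 1. Over all probe sets, leaving out salt array 3 gave 129 increases and 527 decreases against salt, and 431 and 313 for salt against the control. LEA19 had 666, 492 and 879 under salt alone, and its level under salt+ABA was higher by 1.50 ± 0.17 (adjusted p = 4.24e-05). rab25, with 100, 58.9 and 133 under salt, was higher by 1.14 ± 0.17 (adjusted p = 0.000418), the call that was lost without salt array 2. For RAB16D, whose salt arrays of 825, 1214 and 3073 reached below and above the salt+ABA arrays, a difference was not shown (0.51 ± 0.32, adjusted p = 0.438) but passed without salt array 3 (1.04, adjusted p = 0.00398).

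**Figure D3:**
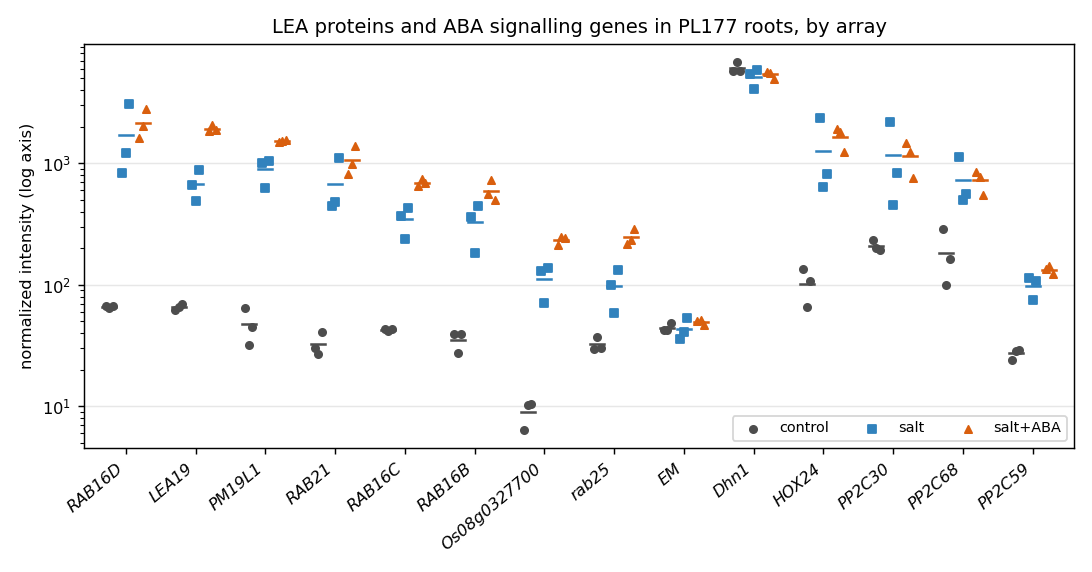
Normalized intensity (log axis) of the 10 genes of the LEA list and 4 ABA-related regulators in each of the 3 control, 3 salt and 3 salt+ABA arrays of PL177 roots, with horizontal lines at the means. All but EM and Dhn1 have their salt+ABA arrays above the control arrays, and 6 of the 10 genes of that list, among them LEA19 and rab25, also have them above every salt array.

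Among the components of ABA signalling, the PP2C phosphatases, negative regulators of the pathway, gave 4 increases and no decrease in 57 members (median -0.01). PP2C30 had 1459, 1241 and 758 against 232, 200 and 193 (2.26 ± 0.60, adjusted p = 0.0181, limma), and PP2C68 had 850, 776 and 547 against 290, 100 and 163 (1.88 ± 0.50, adjusted p = 0.0201). PP2C59 (1.48) and Os06g0698300 (1.39) also rose. The groups did not overlap in any of these, but the calls of PP2C30 and PP2C68 were lost when salt+ABA array 1, salt+ABA array 2 or control array 3 was left out, with adjusted p of 0.0549 to 0.0758, and that of PP2C68 also without control array 2 (adjusted p = 0.0795). None of the 10 SnRK2 kinases passed: their log2 fold changes ran from -0.43 (SAPK4) to 0.45 (SAPK6), 4 had an unadjusted limma p below 0.05, and a t-test called none over 2-fold. In ABA synthesis and breakdown, 1 of 7 genes rose. ABA8OX2, an ABA 8′-hydroxylase that inactivates the hormone, had 1022, 1125 and 1313 against 436, 619 and 416 (1.20 ± 0.18, adjusted p = 0.000377). Os07g0154100, annotated as Viviparous-14, an enzyme known in maize to commit carotenoids to ABA, was at 311, 290 and 151 against 35.3, 456 and 30.6, where control array 2 was above all others, and did not pass (adjusted p = 0.507).

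Calls among transcription factors varied by family, beside 2.19% of all genes that rose and 1.73% that fell. Of HD-Zip factors 8.82% rose, of bHLH factors 8.33% and of MADS factors 3.23%. Of WRKY factors 33.3% fell, of NAC factors 12.5% and of bZIP factors 4.76%, each share resting on few genes. None of 12 MYB and none of 12 AP2/ERF and DREB factors passed (6 and 0 had an unadjusted limma p below 0.05, and a t-test called none over 2-fold). These lists were drawn mainly by gene name and need not hold every family member. Of 34 HD-Zip factors 3 rose, with HOX24 at 1919, 1809 and 1243 against 134, 66 and 107 (3.66 ± 0.51, adjusted p = 0.000187, limma), Hox22 at 1.64 and HOX4 at 1.01. The salt arrays of HOX24 (2347, 637 and 821) reached both above and below those of salt+ABA. Among 21 bZIP factors only BZIP52 passed, and it fell from 3609, 3568 and 3361 to 478, 536 and 515 (-2.71 ± 0.22, adjusted p = 1.45e-06). Of 8 NAC factors 1 fell, NAC45 (-1.39). In the WRKY list of 6, WRKY62 fell from 584, 202 and 424 to 73.5, 63.4 and 48.3 (-2.12 ± 0.36, adjusted p = 0.00086) and WRKY76 from 88.7, 113 and 119 to 37.8, 32.2 and 27.2 (-1.11 ± 0.20, adjusted p = 0.00127). Both are known in rice as repressors of defence genes. In each of these WRKY genes all salt+ABA arrays were below all control arrays. The call of HOX4 was lost without salt+ABA array 3 and without control array 2, where its log2 fold changes were 0.99 and 0.98.

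Sugar transporters gave 3 increases in 19 members, 2 of them among the 15 greatest increases of named genes. SWEET12, a member of the SWEET family of sugar exporters, had 1313, 1286 and 1258 under salt+ABA against 13.4, 18 and 16.1 in the control (4.78 ± 0.14, adjusted p = 1.66e-11, limma). Its level under salt alone was already 1065, 888 and 1524, and no difference between salt+ABA and salt was shown (0.18 ± 0.14, adjusted p = 0.557). SWEET1b behaved differently, with 686, 720 and 737 under salt+ABA, 46.9, 42.6 and 52.7 in the control (3.23 ± 0.12, adjusted p = 2.65e-10) and 61.5, 86.1 and 114 under salt, so that salt+ABA exceeded salt by 2.67 ± 0.12 (adjusted p = 9.01e-09). The 3 groups of SWEET1b arrays did not overlap, and salt alone exceeded the control by 0.57 ± 0.12 (adjusted p = 0.00596), within 2-fold. The sucrose transporter SUT1 rose by 1.36 ± 0.17 (adjusted p = 8.5e-05), from 118, 174 and 123 to 448, 388 and 374. SWEET4 stood at 2125, 1953 and 1766 against 3377, 3924 and 3456, a difference of -0.87 ± 0.11 (adjusted p = 8.88e-05) that stayed within 2-fold.

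Copalyl diphosphate synthases form the precursors of the diterpenoid phytoalexins, and CPS2, which makes the ent-form of the precursor, was the member with the greatest increase. It had 490, 541 and 582 under salt+ABA and 8.66, 11.8 and 7.13 in the control (3.79 ± 0.11, adjusted p = 1.66e-11, limma). Under salt alone it had 11.7, 16.5 and 20, close to the control (0.22 ± 0.11, adjusted p = 0.215), and salt+ABA was higher than salt by 3.57 ± 0.11 (adjusted p = 8.13e-11). Of 16 genes on the list, 8 rose and none fell, with a median of 1.26 against 0.02 over all genes. CPS4, which makes the syn-form of the precursor for the momilactones, had 270, 319 and 291 against 23.6, 28.9 and 29.1 (2.46 ± 0.25, adjusted p = 1.27e-05). DTC1, a cyclase of the phytocassane branch, had 348, 366 and 357 against 53.8, 33.6 and 26.4 (2.49 ± 0.17, adjusted p = 1.97e-07), with a dim second probe set at 0.20. MAS, momilactone A synthase, had 538, 619 and 658 against 36.5, 56.6 and 41.9 (3.05 ± 0.41, adjusted p = 0.000147). In each of these genes the salt+ABA arrays were above the control arrays without overlap.

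In the RefSeq gene table of assembly ASM3414082v1, 13 genes of the list lie in clusters. CPS4, CYP99A3, MAS, DTS2 and CYP99A2 are close neighbours on chromosome 4, and all 5 rose, by 2.46, 2.42, 3.05, 1.58 and 2.25. CYP99A2 and CYP99A3 are cytochrome P450 enzymes and DTS2 a cyclase of the momilactone branch. On chromosome 2, CYP76M5, CYP76M8, DTC1, CYP71Z6, CYP71Z7, CPS2, KS6 and CYP76M6 are close neighbours, and 3 of the 8 rose, namely DTC1, CPS2 and CYP71Z7 (370, 476 and 441 against 63.1, 59 and 65.3, 2.28 ± 0.22, adjusted p = 5.1e-06). The other 5 ranged from -0.45 for KS6 to 0.64 for CYP76M8. CYP71Z6, which lies between members that rose, had 9.47, 14.1 and 11.5 against 6.15, 4.43 and 5.83. Its probe set was dim on all 6 arrays. The syn-precursor genes on chromosome 4 spread under salt alone, where salt array 1 was above the other salt arrays for each of them (CPS4 at 164, 63.9 and 46.5, MAS at 684, 186 and 139). For MAS salt array 1 was also above every salt+ABA array, and its difference between salt+ABA and salt did not pass (1.09 ± 0.41, adjusted p = 0.15) but did without that array (1.72, adjusted p = 0.00218), while CPS4 (1.51, adjusted p = 0.0014), DTC1 (1.77, adjusted p = 9.66e-06) and CYP71Z7 (2.23, adjusted p = 1.08e-05) passed. Of the gibberellin genes, CPS1, at 125, 129 and 104 against 39.3, 29.2 and 43.5 (1.13 ± 0.17, adjusted p = 0.000296), rose. ks1, at 102, 92.5 and 105 against 141, 160 and 106, did not pass.

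**Figure D4:**
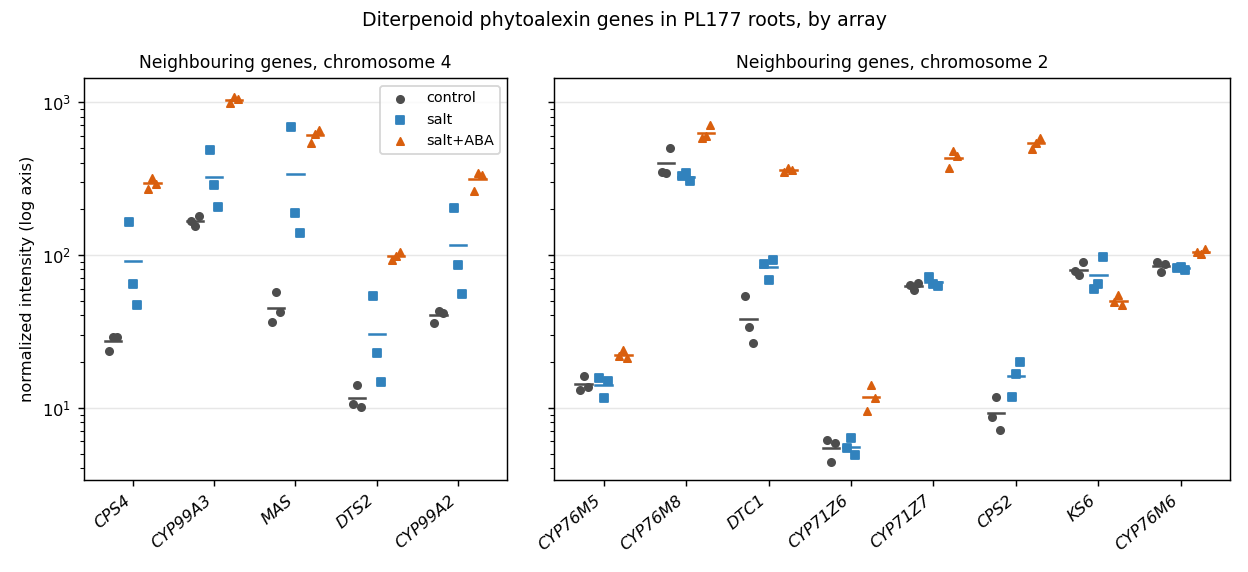
Normalized intensity (log axis) of neighbouring diterpenoid phytoalexin genes in each control, salt and salt+ABA array of PL177 roots, in their order along chromosome 4 (left) and chromosome 2 (right), with lines at the means. All 5 genes on the left and DTC1, CYP71Z7 and CPS2 on the right have salt+ABA arrays well above the control, and the salt arrays of CPS2 and CYP71Z7 lie near the control.

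Further enzymes of oxidation and conjugation rose. Among 29 cytochrome P450 genes 8 rose and 2 fell, a list that shares CYP99A2, CYP99A3 and CYP71Z7 with the diterpenoid genes. The 2 that fell, AOS of locus LOC4334233 and AOS4, are counted again among the jasmonate genes below. CYP701A8, a kaurene oxidase-like enzyme, had 287, 410 and 372 against 44.2, 45.8 and 34.4 (2.39 ± 0.23, adjusted p = 6.04e-06, limma). Laccases, multicopper oxidases associated with lignin, rose in 2 of 9 members. LAC19 went from 5.58, 8.8 and 8.82 to 402, 522 and 491 (3.66 ± 0.08, adjusted p = 4.19e-13), the smallest adjusted p among the genes named here, and LAC15 from 12.7, 11.9 and 10.8 to 245, 288 and 317 (2.84 ± 0.09, adjusted p = 1.7e-11). Under salt alone LAC19 was at 58.1, 58.1 and 54.8, between the other groups and without overlap with either. Salt+ABA exceeded salt for LAC19 by 2.49 ± 0.08 and for LAC15 by 2.15 ± 0.09 (adjusted p = 8.13e-11 and 1.82e-09). Of 6 glutathione transferases, enzymes of detoxification, GST1 (5867, 6177 and 6425 against 3028, 1439 and 1388, 1.74 ± 0.30), GSTU6 (1.34) and GSTZ5 (1.27) rose. Control array 1 was the highest control array for each of these 3, at 3028 for GST1. The call of GSTZ5 was lost without salt+ABA array 1 (adjusted p = 0.0591) and without control array 3 (adjusted p = 0.0818), and a dimmer second probe set of GSTU6 was at -0.03.

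Both non-symbiotic haemoglobins, proteins that scavenge nitric oxide, were higher under salt+ABA than in either other group. NSHB1 had 1394, 1235 and 1278 under salt+ABA, 390, 155 and 259 in the control and 308, 304 and 185 under salt, with 2.23 ± 0.25 against the control (adjusted p = 2.81e-05, limma) and 2.19 ± 0.25 against salt (adjusted p = 4.49e-05). NSHB2 had 564, 481 and 585, 154, 32.8 and 62.3 and 87.5, 88.7 and 43.8, with 2.46 ± 0.35 (adjusted p = 0.000217) and 2.48 ± 0.35 (adjusted p = 0.000314). Salt alone was not shown to differ from the control in NSHB1 (0.04 ± 0.25) or NSHB2 (-0.02 ± 0.35). The third member, GLB, did not pass (1007, 1073 and 1051 against 1095, 1106 and 1058).

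Defence proteins rose in part. In the list of 16 chitinases and pathogenesis-related proteins 5 rose and 1 fell. PBZ1, a probenazole-induced protein of the PR10 family, went from 133, 127 and 83 to 2339, 2941 and 2926 (4.25 ± 0.39, adjusted p = 4.39e-06, limma) and had 1103, 1474 and 710 under salt. The chitinase Cht1 went from 538, 450 and 1006 to 4521, 3847 and 3842 (2.64 ± 0.28, adjusted p = 1.7e-05), and its salt arrays (4036, 2409 and 4374) overlapped those of salt+ABA. Chib3H-a was the member that fell, from 235, 117 and 113 to 39.6, 36.3 and 40.6 (-1.34 ± 0.19, adjusted p = 0.000227). The call of Chia2a (1.09) was lost without control array 3, where its log2 fold change was 0.99.

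Metal and phosphate uptake genes showed single increases, and some metal transporter genes outside the list fell. Of 30 genes of iron and metal uptake 3 rose and none fell. Nramp1, a metal transporter, had 679, 606 and 674 against 225, 106 and 127 (1.94 ± 0.19, adjusted p = 5.99e-06, limma) and BHLH063, known in rice as a negative regulator of the iron deficiency response, had 575, 600 and 700 against 306, 212 and 237 (1.22 ± 0.12, adjusted p = 6.88e-06). Both were also higher under salt+ABA than under salt, by 1.66 ± 0.19 and 1.08 ± 0.12 (adjusted p = 3.81e-05 and 3.13e-05). IRT1, an iron transporter of the root surface, ran the other way in that comparison. It had 164, 182 and 174 under salt+ABA, 27.3, 42.9 and 32.8 in the control and 235, 409 and 362 under salt, so that it rose against the control (1.63 ± 0.21, adjusted p = 7.44e-05) and was -0.81 ± 0.21 relative to salt (adjusted p = 0.0254), within 2-fold except without salt array 1 (-1.02, adjusted p = 0.00498). The phosphate transporter Pht1;4 rose by 1.67 ± 0.19 (adjusted p = 3.22e-05), from 171, 323 and 252 to 771, 904 and 839. Outside the lists, the metal transporter genes ZIP1 of locus LOC4326394 (-1.35 ± 0.18, adjusted p = 9.8e-05), ZIP5 (-1.35 ± 0.24, adjusted p = 0.00137) and HMA5 (-1.16 ± 0.19, adjusted p = 0.000577) fell. The copper transporters COPT2 and COPT1, given below, fell too.

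Nitrate uptake genes fell sharply. NRT2.2, a high-affinity nitrate transporter, dropped from 921, 342 and 979 in the control to 22.9, 19 and 16.5 under salt+ABA (-3.79 ± 0.38, adjusted p = 8.37e-06, limma), the greatest decrease of any named gene. NRT2.3 dropped from 353, 304 and 373 to 87.6, 69.4 and 73.9 (-1.78 ± 0.20, adjusted p = 2.71e-05). The probe sets of NRT2.2 and NRT2.3 may share signal with related genes. NIA1, a nitrate reductase, dropped from 911, 1141 and 714 to 298, 288 and 261 (-1.58 ± 0.24, adjusted p = 0.000384), while a dim second probe set of it stood at 0.01. These were the 3 of 17 nitrogen genes that passed, and the ammonium transporters and glutamine synthetases ranged from -0.13 (AMT3;3) to 0.83 (AMT3;2). Salt alone also lowered these transcripts, with NRT2.2 at 18.7, 23.5 and 27.7 and NIA1 at 259, 307 and 322, and a difference between salt+ABA and salt was not shown for NRT2.2 (adjusted p = 0.932), NRT2.3 (adjusted p = 0.34) or NIA1 (adjusted p = 0.939). The copper transporter COPT2 fell from 3572, 2901 and 2881 to 461, 547 and 542 (-2.52 ± 0.12, adjusted p = 6.8e-09). Its salt arrays, at 925, 934 and 899, lay between, and salt+ABA was below salt by a log2 difference of -0.80 ± 0.12 (adjusted p = 0.000706), within 2-fold.

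Genes of the jasmonate list moved in both directions. Jasmonate is a wound and defence hormone, made from fatty acids by lipoxygenases and allene oxide synthases, and its JAZ proteins repress the response. Of 35 genes 6 fell and 2 rose, with a median of -0.16. JAZ13 fell from 265, 345 and 203 to 28.2, 28.2 and 23.2 (-2.35 ± 0.61, adjusted p = 0.0161, limma), and JAZ10 from 1737, 1691 and 1165 to 386, 385 and 318 (-1.97 ± 0.56, adjusted p = 0.0287), while a second probe set of JAZ10 at -1.16 was not called (adjusted p = 0.143). The synthesis genes LOX3 (151, 174 and 134 against 488, 369 and 908, -1.66 ± 0.27) and AOS of locus LOC4334233 (502, 452 and 409 against 1534, 1432 and 1354, -1.60 ± 0.39) were lower, as were AOS4 (-1.21) and JAZ6 (-1.13). None of these overlapped between salt+ABA and control. Under salt alone JAZ13 stood at 184, 141 and 472, close to the control, and salt+ABA was lower than salt by a log2 difference of -2.19 ± 0.61 (adjusted p = 0.0405), a call lost when any 1 of these arrays except salt array 2 was left out (adjusted p of 0.0521 to 0.195). The oxophytodienoate reductases OPR5 (1.31) and OPR1 (1.18), which the list holds by their name, rose. Whether they take part in jasmonate synthesis was not tested. Several of these calls were near the threshold: the count of decreases was 2 without salt+ABA array 3 and 3 without salt+ABA array 1, salt+ABA array 2 or control array 1, JAZ10 and AOS4 each lost the call for 5 of the 6 arrays left out and JAZ13 for 2, and the call of OPR1 was lost without control array 2 or 3.

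**Figure D5:**
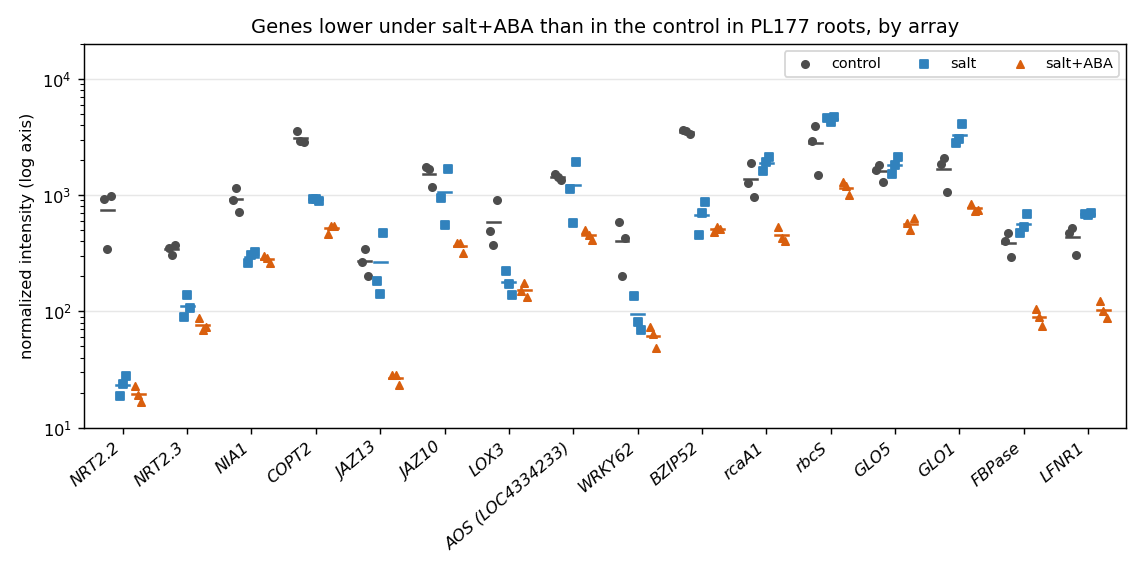
Normalized intensity (log axis) of 16 genes that were lower under salt+ABA than in the control, in each control, salt and salt+ABA array of PL177 roots, with lines at the means. The salt arrays of NRT2.2, NIA1 and LOX3 lie with those of salt+ABA, and the salt arrays of rcaA1, rbcS, GLO5, GLO1, FBPase and LFNR1 overlap the control arrays or lie above them.

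Genes of photosynthesis and photorespiration, used here as leaf markers, were for the most part measurable in the roots and fell in part under salt+ABA. Of 18 leaf markers 4 fell and none rose (median -0.63 against 0.02 over all genes). rcaA1, Rubisco activase, had 532, 427 and 407 under salt+ABA against 1279, 1878 and 969 in the control (-1.49 ± 0.23, adjusted p = 0.000378, limma) and rbcS, the small subunit of Rubisco, 1289, 1190 and 1007 against 2927, 3960 and 1481 (-1.14 ± 0.32, adjusted p = 0.0238). The glycolate oxidases GLO5 (-1.43) and GLO1 (-1.04) fell as well. FBPase, a fructose-bisphosphatase, at 105, 89 and 75.3 against 401, 471 and 295 (-1.77 ± 0.22, adjusted p = 6.39e-05), and LFNR1, a ferredoxin reductase, at 122, 99.9 and 87.3 against 477, 522 and 306 (-1.77 ± 0.22, adjusted p = 6.54e-05), were among the 15 greatest decreases of named genes. In all 6 genes the salt+ABA arrays were below every control array. The call of rbcS was lost without salt+ABA array 2 or 3 or control array 1 or 2 (adjusted p of 0.063 to 0.104) and that of GLO1 without control array 1 or 2, where it stayed within 2-fold. A second probe set of GLO1 stood at 0.17 and was not called (adjusted p = 0.123, limma). It was not dim, with a mean intensity of 1820 over the root arrays. A dimmer one of GLO5 at -0.49 was within 2-fold, and 3 others of rbcS stood at -1.13, -1.86 and, for a dim one, 0.08.

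The summed intensity of the 18 leaf markers was 12677 to 15368 under salt+ABA, 17556 to 30797 in the control and 34229 to 41268 under salt alone, with no overlap among the 3 groups. Control array 3 had the lowest and control array 2 the highest sum of its group. The sum also holds GLO3 and GLO4, which were higher in root than in shoot controls. On the scale shared with the shoots, rcaA1 in root controls was 0.0964 times its shoot level, rbcS 0.15 times and CAB2R 0.509 times. The part of leaf tissue or light on the roots in these decreases was not tested. Between salt+ABA and salt, 12 of the 18 were lower and none higher, among them GLO1 (-2.05 ± 0.22, adjusted p = 2.92e-05) and rcaA1 (-1.98 ± 0.23, adjusted p = 4.58e-05), against 2.14% of all genes that were lower in that comparison. The 14 root markers summed to 29861 to 30450 under salt+ABA and 32310 to 35599 in the control, with NRT2.2 and NRT2.3 falling and IRT1 rising as given above.

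Lists for growth, protection of proteins and metabolism gave calls as well, beside 2.19% of all genes that rose and 1.73% that fell. Of the heat-shock list 8% rose and 2% fell, and 13.3% of the expansin list rose. Of the 3 proline genes 33.3% rose, 22.2% of the 9 trehalose-phosphate genes fell, and 3.57% of the sodium and potassium transporters fell. In the list of 50 heat-shock proteins and factors 4 rose, with HSF6 at 1.71, Hsf-01 at 1.67, CLPB1 at 1.53 and HSP17.4 at 1.29 (a second probe set of HSF6, at 0.34, was not called), and HSP23.2 fell from 813, 1049 and 595 to 218, 250 and 226 (-1.66 ± 0.25, adjusted p = 0.000355, limma). Of 30 expansins and xyloglucan enzymes, which loosen and remodel cell walls, 4 rose, with EXP31 at 474, 468 and 408 against 75.4, 110 and 66.2 (2.07 ± 0.26, adjusted p = 7.37e-05), EXPB11 at 1.30, EXPB6 at 1.27 and EXPB2 at 1.14. Without control array 1 the count was 2, and the call of EXPB2 was lost when any array but control array 3 was left out. The proline synthesis gene P5CS2 had 160, 162 and 134 against 45.9, 63.7 and 56.9 (1.07 ± 0.14, adjusted p = 8.03e-05), a call lost without control array 1, and 3 dimmer probe sets of it stood at -0.27, -0.47 and 0.20. The trehalose-phosphate phosphatase TPP1 fell from 2789, 4668 and 1874 to 736, 700 and 773 (-1.93 ± 0.61, adjusted p = 0.0436), and this call was lost when any array but control array 3 was left out, and TPP2 of locus LOC4349333 was at -1.17 ± 0.19, a call lost without control array 3. Of 28 sodium and potassium transporters only HAK9 passed (272, 283 and 237 against 698, 378 and 712, -1.04 ± 0.23, adjusted p = 0.0058), and its call was lost without salt+ABA array 3, control array 1 or control array 3, where it stayed within 2-fold. HKT1;5, which retrieves sodium from the xylem, stood at 150, 139 and 116 against 67.4, 127 and 59.7 and did not pass (adjusted p = 0.1).

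Calcium-dependent kinases and their partners gave 1 increase and 2 decreases in 51 members, and cyclins and their kinases 2 decreases in 40. CIPK16, a calcium-sensor-dependent kinase, rose (1.79), a call lost without salt+ABA array 1 or 2 or control array 2, and CIPK17 (-1.30) and CIPK14 (-1.01) fell. The cyclins CYCD5-3 (-1.19) and CYCP3-1 (-1.03) fell, and the calls of CIPK17, CIPK14 and CYCP3-1 were each lost without at least 1 array. The auxin gene SAUR39 was the only 1 of 59 auxin genes that passed, from 1661, 937 and 1768 to 360, 388 and 435 (-1.75 ± 0.51, adjusted p = 0.0311, limma), and its call was lost when any array but control array 2 was left out. Calls were absent from 12 lists with 202 genes, among them aquaporins (25 genes, median 0.01), DNA replication proteins (21, median 0.04), cytokinin genes (28, median 0.01) and antioxidant enzymes (15, median 0.18). In these lists 75 genes had an unadjusted limma p below 0.05, and neither limma nor the t-test, with unadjusted p, called any over 2-fold.

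Further named genes among the 15 greatest increases were PDHE1-A of locus LOC4340640, a pyruvate dehydrogenase subunit, with 696, 720 and 634 against 57.7, 54.9 and 67.6 (2.96 ± 0.23, adjusted p = 9.25e-07, limma), and among the 15 greatest decreases STLP3, with 470, 517 and 601 against 3046, 2170 and 2419 (-2.19 ± 0.25, adjusted p = 2.93e-05). Both were picked among DEGs without overlap between the groups. Under salt alone STLP3 was at 660, 460 and 611, with no difference from salt+ABA shown (adjusted p = 0.878).

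In roots of IR64, salt+ABA against the control gave 501 up- and 457 down-regulated probe sets, 0.875% and 0.798% of those tested. Of the 630 probe sets up-regulated in PL177 roots, 445 (70.6%) were also up-regulated in IR64, which is 88.8% of the IR64 increases, and of the 519 down-regulated ones 376 (72.4%) were also down-regulated, 82.3% of the IR64 decreases. No probe set was called in opposite directions. Same-numbered control arrays of the lines deviated from their group means together (correlations across probe sets of 0.645, 0.695 and 0.584), so the controls of the lines were not independent. Side by side, log2 fold changes in PL177 and IR64 were 4.44 and 4.49 for RAB16D, 3.79 and 4.49 for CPS2, and -3.79 and -3.01 for NRT2.2. EIL1 of locus LOC4332697, an ethylene-signalling factor, had 1.61 in PL177 (846, 909 and 1109 against 428, 352 and 157) and 0.10 in IR64 (25.1, 22.8 and 29.3 against 22.1, 25.3 and 18.4). All 6 IR64 values were below the pseudocount, where a change could hardly show, and the difference did not pass (adjusted p = 1, limma).

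The test of the difference between the lines called 1 probe set of 57258 (0.00175%), and 1147 (2%) had an unadjusted p below 0.05. This was LOC4341335, whose response was lower in PL177 than in IR64. In PL177 roots it had 22.8, 27.2 and 30.5 under salt+ABA and 32.9, 33.2 and 38.2 in the control, a change of -0.18 ± 0.14 (adjusted p = 0.451, limma). In IR64 roots it had 216, 235 and 196 against 30.2, 73.2 and 46.1, a change of 1.63 ± 0.14 (adjusted p = 2.35e-06). The difference was -1.81 ± 0.20 (adjusted p = 0.00859). Under salt alone it stood at 30.3, 26.2 and 25.6 in PL177 and at 191, 249 and 237 in IR64, so that PL177 was low and close together in all 9 arrays. These PL177 values lay near the pseudocount of 32, where a decrease could hardly show. A steady low level and no signal cannot be told apart there. The call was lost without PL177 salt+ABA array 1 (difference -1.76, adjusted p = 0.0564), without IR64 salt+ABA array 1 (-1.81, 0.0503) or 2 (-1.75, 0.0574) and without IR64 control array 3 (-1.80, 0.0501).

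The response to salt+ABA was also set against that of PL177 shoots. With the 36 arrays normalized together, 805 probe sets (1.41%) responded more positively in roots than in shoots and 540 (0.943%) more negatively by the test of the difference. SWEET12 changed by 4.91 in roots and by 0.00 in shoots (adjusted p of the difference = 2.61e-17, limma), CPS2 by 3.85 and -0.65 (adjusted p = 1.32e-11) and NRT2.2 by -3.87 and 0.03 (adjusted p = 4.21e-07). PBZ1 (4.42 and -1.31) and LAC19 (3.71 and -2.02) were higher in roots and lower in shoots. For the dehydrins RAB21 (4.15 and 4.15, adjusted p = 1) and RAB16B (3.28 and 3.87, adjusted p = 0.449) no difference was shown. The named genes set side by side here were picked for their changes in the same root arrays. Of the 57 named genes that rose in roots, 13 also rose in shoots, where 0.793% of all genes rose, and 5 fell there, where 1.52% fell, and of the 31 that fell in roots 4 also fell in shoots and none rose.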

How the data were processed

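Total RNA of 36 samples was hybridised to 1 Affymetrix rice array each, in 12 groups of 3 arrays formed from the labels. The deposited values were linear intensities per probe set as the authors made them, from 1.0 to 25332. Their summary method and normalization were not given in the sources available here. The methods of the study state 3 biological replicates. The labels give 4 days of treatment and the study's methods another duration, which was not resolved.

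After 123 control probe sets were left out, 57258 were tested. The 18 root arrays were quantile normalized, log2(intensity + 32) was taken, and limma 3.58.1 (R 4.3.3) was fitted over 6 groups with lmFit and eBayes and Benjamini-Hochberg adjustment. Organs were compared on 36 arrays normalized together. DEGs changed more than 2-fold with an adjusted p below 0.05. The number of arrays limits the precision. The fit was tested on simulated data. A table of platform annotation gave 1 gene for 22436 probe sets, several for 95 and none for 34727. Each of 17905 genes was represented by 1 probe set, and 2458 had a name other than a bare locus number. For 148 probe sets listed in the study's tables, only identifiers and annotations were taken from there.

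Named genes were the 15 greatest increases and the 15 greatest decreases among named DEGs with no overlap between groups, together with at most 4 members in each direction for each of 46 gene lists (948 genes). The comparison, its lists and its tests were chosen with earlier results of these data known. Alternatives were a pseudocount 4 times lower or higher, no quantile normalization, a filter on a mean intensity of 64, other sets of arrays in the fit, limma with trend and robust settings, a plain t-test, no fold threshold, the replicate number as a block and leaving out each array.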

Additional observations from a re-analysis of the deposited data

Results flagged for a closer look

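One response differed between the lines by the test of the difference itself: that of LOC4341335 was lower in PL177 roots than in IR64 roots by a log2 difference of -1.81. Its PL177 values lay near the pseudocount in every root array, so its probe set may give no signal in that line. Of the 30 greatest changes of named genes, 20 differed between roots and shoots of PL177 by the same kind of test. The 30 were picked for their changes in the same root arrays that enter this test, so the count was favoured in advance. Over all probe sets, 1.41% responded more positively in roots than in shoots and 0.943% more negatively. Log2 differences of the root response minus the shoot response were 5.73 for PBZ1, 5.73 for LAC19, 4.91 for SWEET12, 4.59 for MAS, 4.50 for CPS2, 3.31 for SWEET1b, 3.21 for LAC15 and 2.07 for PDHE1-A. Among genes for LEA and related proteins they were 2.63 for RAB16D, 1.88 for LEA19, 1.78 for PM19L1 and 1.38 for RAB16C. Among genes that fell in roots they were -3.90 for NRT2.2, -2.40 for COPT2, -1.93 for LFNR1, -1.81 for FBPase, -1.72 for STLP3, -1.72 for HSP23.2, -1.49 for LOX3 and -1.18 for NRT2.3.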

How the results depend on the processing

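No result reversed under any alternative. With a pseudocount 4 times as high the number of DEGs was 647 for salt+ABA against the control, 416 for salt+ABA against salt, 408 for salt against the control, 516 in IR64 and 743 for roots against shoots. A plain t-test with adjusted p gave 754, 432, 8 and 570 for the first 4 of these, and without a fold threshold limma gave 8277, 4012, 8292, 6533 and 5845. The difference between the lines had 2 calls without dim probe sets, 0 with only the arrays compared and 4 with all 36 arrays; with 18 root arrays 1147 probe sets had an unadjusted p below 0.05. Leaving out 1 array gave 1050 to 1188, 656 to 940, 578 to 1031, 818 to 1010, 0 to 2 (lines) and 1177 to 1597 (roots against shoots). Same-numbered salt+ABA and control arrays deviated with correlations of -0.129, -0.0296 and 0.0249, so the numbers were not taken to pair them. Between the lines, same-numbered control arrays correlated at 0.645, 0.695 and 0.584 and salt+ABA arrays at 0.164, 0.0288 and 0.25, so the control arrays were paired but not every salt+ABA pair was. With the replicate number as a block the counts were 1161, 794, 773, 958, 1 and 1392, and no named gene lost its call. With the replicate block set within treatment, which pairs the lines, LOC4341335 kept its call (-1.81) and the count was again 1. The list without PM19L1 and the genes and lists against salt without each array were chosen after seeing the data. Of 88 named genes, 25 lost the call with that pseudocount, 26 with the adjusted t-test and 22 on leaving out at least 1 of the 6 arrays. Dim probe sets near the pseudocount give understated changes, and 3 arrays a group limit what could be called.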

Other observations

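Outside the lists, some named DEGs of PL177 roots were picked after their values were seen. DXPS, the first enzyme of the plastid pathway that supplies diterpenoid precursors, had 386, 417 and 409 under salt+ABA, 31.4, 36.8 and 36.8 in the control and 107, 54.5 and 43.8 under salt, with 2.70 ± 0.17 against the control (adjusted p = 1.23e-07, limma) and 2.17 ± 0.17 against salt (adjusted p = 2.75e-06). The salt+ABA arrays were above all others. PSY3, a phytoene synthase at the start of carotenoid synthesis, had 1159, 1158 and 781 against 159, 280 and 131 (adjusted p = 0.00115), without overlap. CEBIP, a receptor for chitin fragments, fell from 1426, 982 and 1554 to 516, 480 and 409 (-1.42 ± 0.24, adjusted p = 0.000766). GDCSH, a subunit of glycine decarboxylase in photorespiration, had 80.7, 70 and 55.7 under salt+ABA, 359, 310 and 116 in the control and 438, 403 and 530 under salt, with -1.43 ± 0.32 against the control (adjusted p = 0.0074) and -2.28 ± 0.32 against salt (adjusted p = 0.000341). The copper transporter COPT1 fell as well (-1.21 ± 0.21, adjusted p = 0.00113).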
